A study of Mus musculus with 9 samples.

Results

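The genes described here are the 2 major metallothioneins of the mouse, Mt1 and Mt2, and 5 transporters of zinc and related metals, Slc30a1, Slc30a10, Slc39a4, Slc39a5 and Slc39a14. They were chosen by name. A probe was taken as a member when the transcript identifier in the array files matched 1 of these 7 symbols, and each of the 7 genes was represented by 1 probe, out of 20972 gene symbols that could be matched on the array. All 7 probes passed the filter on dim signals and belonged to the 26277 probes that were tested. Total liver RNA of 9 male C57BL/6J mice was labelled with Cy3 and hybridised to 1-colour Agilent expression arrays, 1 array per mouse, at 20 weeks of age. STAM mice received streptozotocin as newborns, which destroys the insulin-secreting beta cells, and were then fed a high-fat diet, and they develop diabetes, steatohepatitis and liver tumours. STAM-NON mice (n = 3) were left untreated, STAM-INS mice (n = 3) were the same model treated with insulin (the long-acting analogue glargine), and Normal mice (n = 3) received neither streptozotocin nor the high-fat diet. Every STAM mouse therefore carried both streptozotocin and the diet, and the arrays cannot tell these apart. The labels name the tissue only as liver, and how much of each piece was tumour was not given in the sources used here.

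Metallothioneins are small cysteine-rich proteins that bind zinc and copper in the cytosol, and in liver their transcription is switched on by zinc through the metal-responsive transcription factor MTF-1, by glucocorticoids and by cytokines of the acute-phase response. Zinc transporters fall into the SLC30 (ZnT) family, which moves the metal out of the cytosol, and the SLC39 (ZIP) family, which moves it in. Slc30a10 and Slc39a14 also carry manganese, as exporter and importer.

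Expression is given as the centred log2 signal, which sets log2 of the processed spot signal against the 75th percentile of its own array, so that a value of 0 equals that percentile and a step of 1 is a doubling. Levels are compared between mice for 1 gene and never between genes, because probes differ in brightness. Groups were tested with limma, its p-values were adjusted over all tested probes by the Benjamini-Hochberg method, and the threshold was 0.05. Between 46.2% and 65.0% of spots per array were well above background by the scanner software's flag, and no spot was saturated. Among genes that mark hepatocytes, Alb lay at 10.15 to 10.67 and Ttr at 8.27 to 9.51 on the 9 arrays of the labelled tissue. All 6 STAM arrays lay on 1 slide and all 3 Normal arrays on another, so slide and group cannot be told apart in any comparison with Normal. All 3 STAM-NON arrays and STAM-INS replicate 1 lay in row 1 of their slide. The 3 Normal arrays and STAM-INS replicates 2 and 3 lay in row 2. Row thus coincides with group in STAM-NON against Normal. There 4220 of the 26277 tested probes passed, and 15 passed with row as a fixed block. The 3 comparisons share their groups in pairs and are not independent of each other.

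None of the 7 genes passed the threshold in any comparison. In STAM-NON against Normal 0 of 7 passed, while 16.1% of all tested probes did. In STAM-INS against STAM-NON 0 of 7 passed, beside 0.0913% of all probes. In STAM-INS against Normal 0 of 7 passed, beside 13.9% of all probes. At an unadjusted limma p under 0.05 the counts were 0, 1 and 1 of 7, the 1 being Slc30a10 each time, where the shares of all probes were 35.8%, 8.78% and 32.5%. The methods' t-test with the same adjustment called 0, 0 and 1 of 7, again Slc30a10, and 0.114%, 0.00381% and 10.8% of all probes. The groups did not overlap for 0 of 7 genes in STAM-NON against Normal (41.2% of all probes), for 1 of 7 in STAM-INS against STAM-NON (12.2%) and for 2 of 7 in STAM-INS against Normal (44.0%). The median difference of the 7 was -0.29 in STAM-NON against Normal, where that of all probes was -0.13. It was 0.32 in STAM-INS against STAM-NON, where 6 of 7 differences were above 0 and the median of all probes was 0.03, and 0.56 in STAM-INS against Normal, where that of all probes was -0.09.

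**Figure D1:**
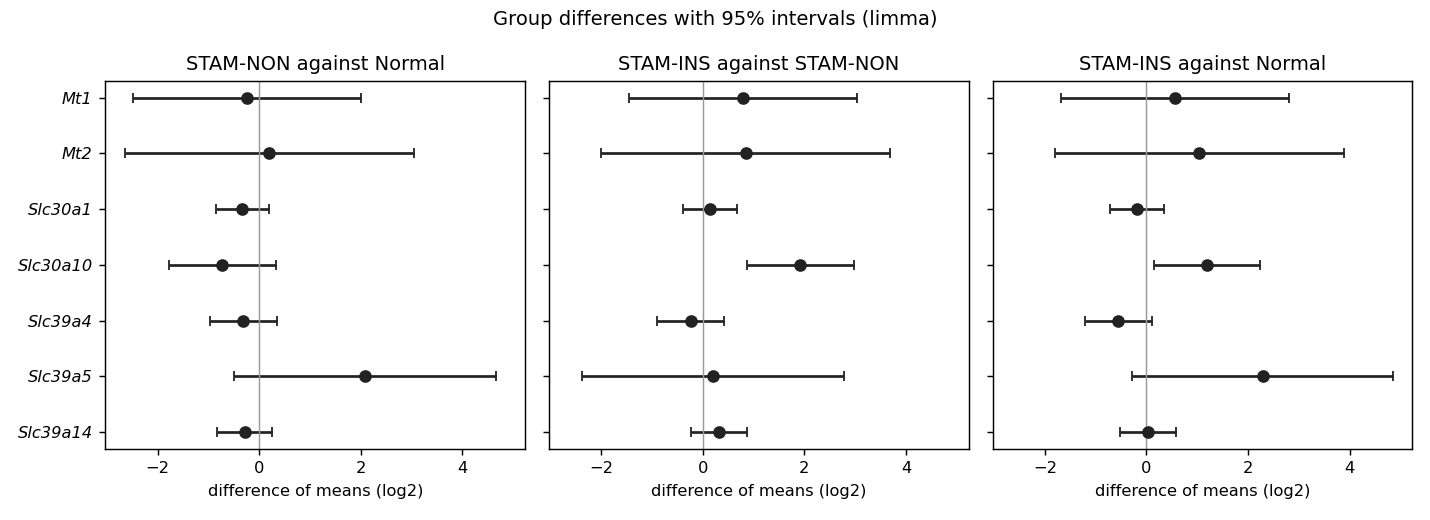
Difference of group means (log2, x axis) for each of the 7 genes (y axis) in the 3 comparisons, with the 95% interval from limma. The intervals of Slc30a10 in both comparisons of STAM-INS lie above 0 (0.87 to 2.97 and 0.14 to 2.24), and those of Mt1, Mt2 and Slc39a5 are the widest.

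The 2 metallothioneins are neighbours on mouse chromosome 8. Their levels moved together from liver to liver, as given below, so the 250 bases before each RefSeq start site are shown, beside those of Slc30a1, a zinc exporter that is also known as an MTF-1 target. The windows are Mt1 at chr8:94178839-94179088, Mt2 at chr8:94172368-94172617 and Slc30a1 at chr1:191906531-191906780, all on the plus strand of GRCm38.p6. Capitals mark the core letters of the metal response element, the motif that MTF-1 binds, searched as TGCACNC or TGCGCNC on both strands, with overlapping matches counted as 1 site.

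Mt1: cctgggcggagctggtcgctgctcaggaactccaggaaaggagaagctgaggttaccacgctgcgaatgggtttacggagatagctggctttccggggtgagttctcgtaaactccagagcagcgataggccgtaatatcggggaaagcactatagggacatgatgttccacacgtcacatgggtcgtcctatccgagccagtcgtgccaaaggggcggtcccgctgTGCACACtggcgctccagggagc
Mt2: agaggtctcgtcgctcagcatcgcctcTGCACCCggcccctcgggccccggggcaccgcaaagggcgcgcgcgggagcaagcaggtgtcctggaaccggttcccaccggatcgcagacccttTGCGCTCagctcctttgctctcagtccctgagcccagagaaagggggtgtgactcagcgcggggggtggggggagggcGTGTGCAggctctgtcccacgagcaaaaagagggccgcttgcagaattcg
Slc30a1: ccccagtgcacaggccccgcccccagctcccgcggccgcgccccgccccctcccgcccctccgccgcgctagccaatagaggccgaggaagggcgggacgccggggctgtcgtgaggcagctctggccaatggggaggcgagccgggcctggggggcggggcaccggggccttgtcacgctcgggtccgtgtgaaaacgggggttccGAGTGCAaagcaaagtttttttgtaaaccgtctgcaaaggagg

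Within the full window of 300 bases, which adds the 50 bases from the start site on, Mt2 held 4 such sites and Mt1 held 3, whereas Slc30a1 and Slc30a10 held 2 each. Of 32851 RefSeq promoter windows of this length, 25.7% held at least 1 site and 1.31% held at least 3. In Mt2 the sites began 223, 128 and 50 bases before the start and 5 bases after it, and in Mt1 they began 23 bases before it and 3 and 21 bases after it. Slc39a5 has 2 windows in the table, of which 1 held a single site and the other held 0. A match describes these letters only. Promoters of Slc39a4 and Slc39a14 were not used here.

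Mt1 differed mainly between mice of the same group. Its centred log2 signal was 8.22, 5.40 and 9.37 in STAM-NON replicates 1, 2 and 3. It was 8.89, 9.41 and 7.09 in the STAM-INS replicates and 7.40, 8.58 and 7.72 in the Normal ones. The lowest and the highest STAM-NON liver thus enclosed every Normal value and 2 of the 3 STAM-INS values, and they lay 15.7-fold apart. The means were 7.90 ± 0.61 (SD, n = 3) in Normal, 7.66 ± 2.04 in STAM-NON and 8.46 ± 1.22 in STAM-INS. STAM-NON differed from Normal by -0.24 (SE 0.98, limma adjusted p = 0.877), with a 95% interval from -2.48 to 2.004 that leaves room for a large change either way. STAM-INS differed from STAM-NON by 0.80 (limma adjusted p = 0.851) and from Normal by 0.56 (limma adjusted p = 0.721). Neither direction held for Mt1, since without STAM-NON replicate 2 the difference between STAM-NON and Normal was 0.89 and that between STAM-INS and STAM-NON was -0.33.

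Mt2 ranked the 9 livers in nearly the same order as Mt1, with a wider spread. Its centred log2 signal was 7.21, 4.03 and 9.01 in the STAM-NON replicates, 8.10, 8.76 and 5.94 in the STAM-INS replicates and 5.91, 7.82 and 5.94 in the Normal replicates. STAM-NON replicate 2 was the lowest of the 9 livers and STAM-NON replicate 3 the highest, a range of 31.6-fold within 1 group. STAM-NON differed from Normal by 0.19 (SE 1.24, limma adjusted p = 0.923, 95% interval -2.65 to 3.04). STAM-INS differed from STAM-NON by 0.85 (95% interval -1.998 to 3.69, limma adjusted p = 0.883) and from Normal by 1.04 (95% interval -1.80 to 3.89, limma adjusted p = 0.588). Without STAM-NON replicate 2 the difference between STAM-INS and STAM-NON was -0.51, and without STAM-NON replicate 3 that between STAM-NON and Normal was -0.94.

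**Figure D2:**
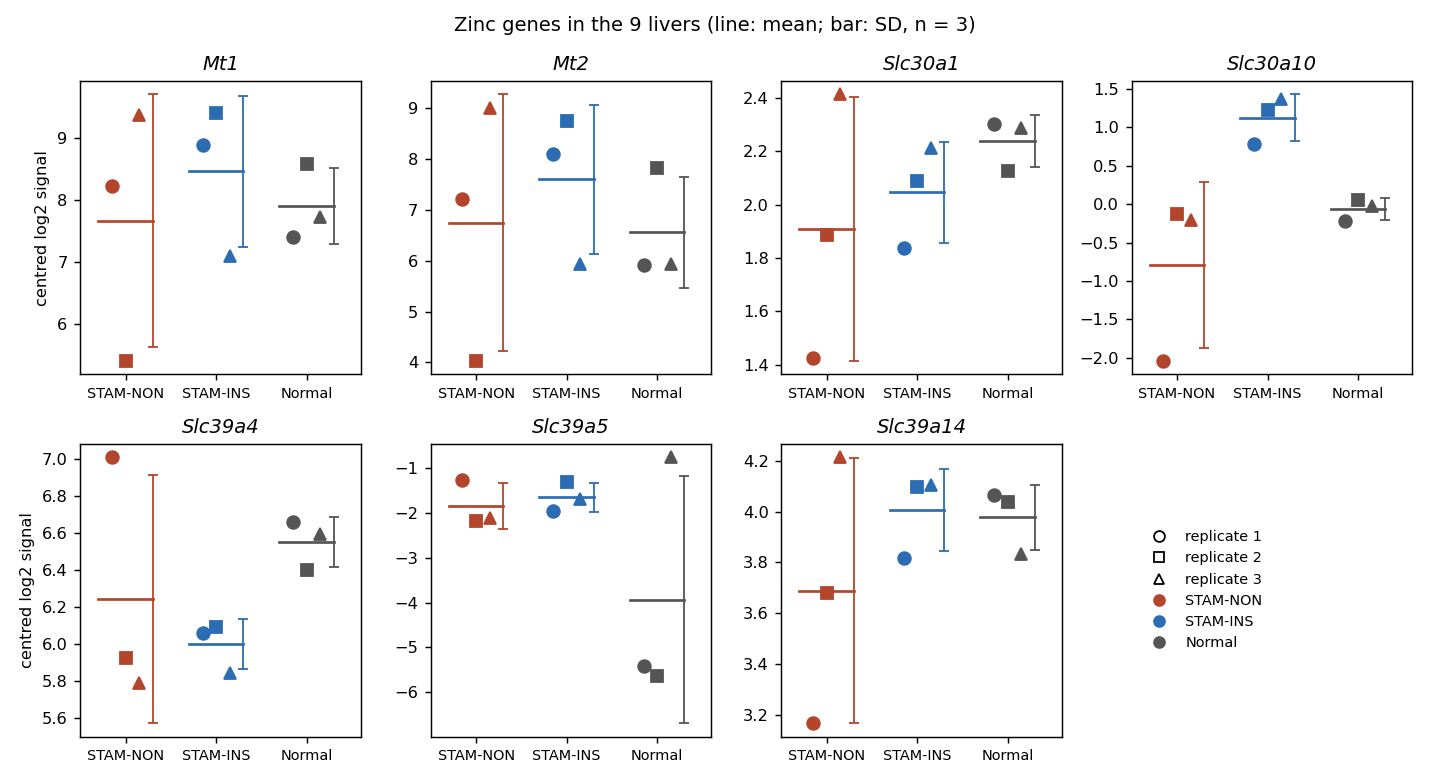
Centred log2 signal (y axis) of each of the 7 genes in the 9 livers, by group (x axis), with 1 point per mouse, the group mean as a line and the SD as a bar (n = 3). STAM-NON replicates 2 and 3 mark the lowest and the highest Mt2 value, all 3 STAM-INS points of Slc30a10 lie above the other 6, and Normal replicate 3 stands apart from the other 2 Normal livers for Slc39a5.

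Both metallothioneins were among the probes that varied most between mice of 1 group. The SD within groups, pooled over the 3 groups, was 1.42 for Mt1 and 1.80 for Mt2 on the log2 scale, against a median of 0.22 over all tested probes. Only 101 of the 26277 probes had a larger SD than Mt1 and 30 a larger one than Mt2. Slc39a5 had an SD of 1.63, which 50 probes exceeded. That spread came mainly from Normal, with an SD of 2.76 against 0.51 in STAM-NON and 0.33 in STAM-INS. Only 1 of the 3 Normal arrays was well above background for it, so this SD is limited by the background. For the other members the pooled SD was 0.65 for Slc30a10, 0.40 for Slc39a4, 0.32 for Slc39a14 and 0.31 for Slc30a1.

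**Figure D3:**
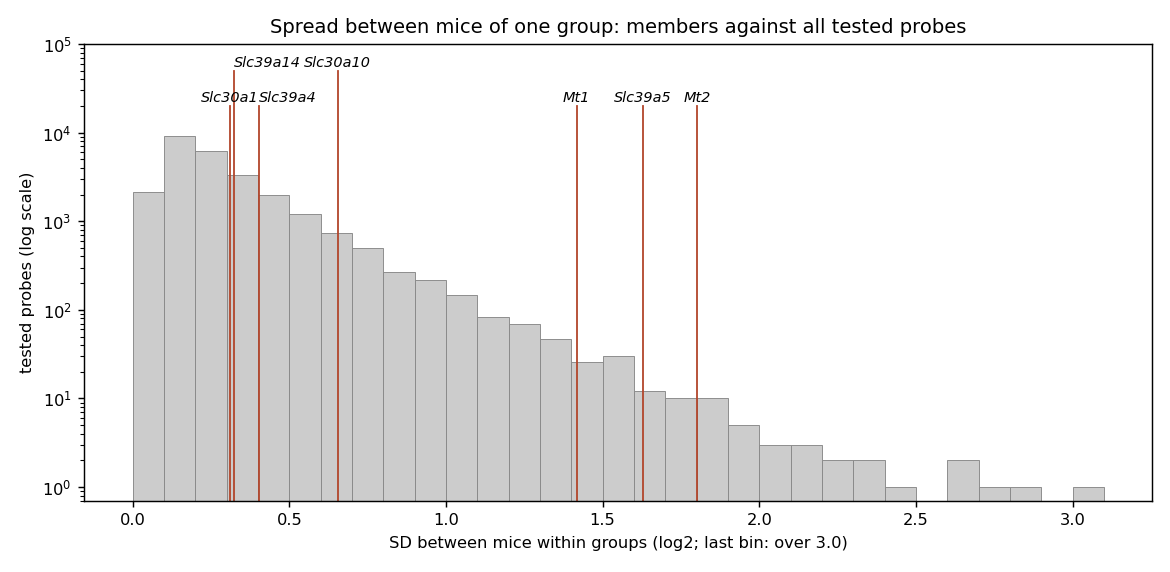
Number of tested probes (y axis, log scale) by their SD between mice within groups, pooled over the 3 groups (x axis, log2 units), with the 7 genes as vertical lines. Mt1, Slc39a5 and Mt2 lie in the far right tail at 1.42, 1.63 and 1.80, while Slc30a1 and Slc39a14 lie at 0.31 and 0.32. The SD of Slc39a5 comes mainly from Normal, where 1 of 3 arrays was well above background.

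The levels of Mt1 and Mt2 ran in parallel over the 9 livers. Pearson's r was 0.981 (exact permutation p = 1.93e-05, adjusted p = 0.000405 over the 21 pairs of members) and Spearman's rho was 0.967 (exact permutation p = 0.000165, adjusted p = 0.00347). Without the 2 livers farthest from the median of Mt1, which were STAM-NON replicate 2 and STAM-INS replicate 2, r was 0.974. It was 0.997 over the 6 STAM arrays, which share a slide, and 0.989 for deviations from the group means, while the other slide held only 3 arrays. The 2 transcripts are closely similar in sequence, and cross-hybridisation between their probes was not tested.

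Slc30a1 and Slc39a14 were the other pair past the threshold by Pearson's r, at 0.899 (exact permutation p = 0.00367, adjusted p = 0.0385). By rank the relation did not pass, with a rho of 0.767 (exact permutation p = 0.0214, adjusted p = 0.225). Without STAM-NON replicate 1 and STAM-INS replicate 1, r was 0.663, so that part of the relation rests on these livers. It was 0.964 over the 6 STAM arrays. Neither metallothionein tracked Slc30a1, with r of 0.107 for Mt1 (exact permutation p = 0.768) and 0.073 for Mt2 (exact permutation p = 0.847).

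**Figure D4:**
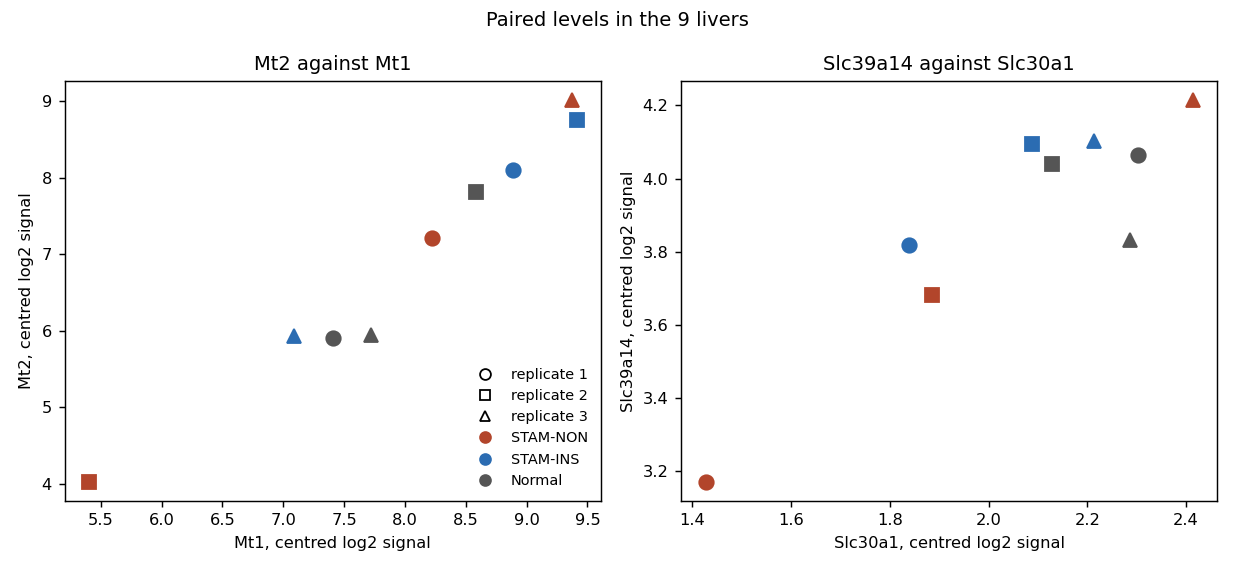
Centred log2 signal of Mt2 against Mt1 (left) and of Slc39a14 against Slc30a1 (right), with 1 point per liver, coloured by group and shaped by replicate number. The points of Mt1 and Mt2 lie close to a line (r = 0.981), and the relation on the right leans on STAM-NON replicate 1 at the lower left.

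Other readouts moved beside the metallothioneins. Neutrophil genes (S100a8, S100a9, Mpo and Elane; 4 of 5 listed genes on the array) had a mean level of 0.99, -0.42 and 4.27 in STAM-NON replicates 1, 2 and 3, of 1.43, 2.08 and 0.35 in the STAM-INS replicates and of -0.41, -0.99 and -1.02 in the Normal replicates. The 6 STAM livers stood in the same order by this mean as by Mt2, and the 3 Normal livers did not. This was 1 of several lists of cell markers, and none of the others gave that order. By the macrophage and endothelial means, STAM-INS replicate 1 was the lowest of the 6 STAM livers, at 3.95 and 0.97. Mpo was well above background on 0 Normal arrays. Elane ran against the other 3 genes, at 1.69 to 2.06 on the STAM arrays and 2.22 to 2.52 on the Normal arrays, and was the only gene of the list past the threshold, with a difference of -0.59 between STAM-INS and Normal (limma adjusted p = 0.0179). The part of these cells in the metallothionein signal was not tested, and in bulk liver more cells of a type and more RNA per cell cannot be told apart. Among 12830 named genes, those most like Mt1 over the 9 arrays were Jchain (r = 0.923), the joining chain of secreted immunoglobulin, and Snx22 (r = 0.911), and those most like Mt2 were Wfdc18 (r = 0.913) and Jchain (r = 0.911). Here and for the other members, such r values were picked as the highest of 12830 over 9 arrays. They were not tested and show no relation by themselves.

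Known regulators of the metallothioneins and other genes induced by the same signals were read beside them. Of 8 listed regulators 0 passed in any comparison by limma, each gene being read from its brightest tested probe. The probes of Mtf1 did not agree in sign, and the brightest differed by 0.04 in STAM-NON and by 0.10 in STAM-INS against Normal, while another that was above background on all 9 arrays differed by -0.40 (limma adjusted p = 0.0882) and -0.25 (limma adjusted p = 0.264). Of 8 glucocorticoid target genes 1 passed, Klf9, which encodes a transcription factor and fell by 0.90 in STAM-NON (limma adjusted p = 0.0106) and by 0.98 in STAM-INS (limma adjusted p = 0.00523) against Normal. Of 12 acute-phase genes 3 passed as higher in STAM-NON and 5 as higher in STAM-INS than in Normal, 0 passed as lower, and 16.1% and 13.9% of all probes passed. The differences were above 0 for 10 and 11 of the 12, and Hamp, which encodes the iron hormone hepcidin, differed by -4.68 and -4.66 without passing (limma adjusted p = 0.245 and 0.268). In STAM-INS against Normal, Lcn2, which encodes the iron-siderophore binder lipocalin-2, was higher by 5.79 (limma adjusted p = 0.00773). The serum amyloid genes Saa1 and Saa2 were higher by 4.57 (limma adjusted p = 0.00431) and 4.52 (limma adjusted p = 0.00387). The mean level of the acute-phase list was 5.60 to 5.90 in Normal livers, 6.05 to 6.66 in STAM-NON livers and 7.17 to 7.29 in STAM-INS livers. In STAM-INS against STAM-NON 12 of the 12 differences were above 0 and 0 passed, beside 0.0913% of all probes. The mean includes Hamp, which varied widely within groups. Hamp lay at 7.20, -3.01 and 3.43 in the STAM-INS replicates and at 5.46, 4.62 and -2.54 in the STAM-NON replicates. Of 9 tested genes of copper handling 1 passed, the copper transporter gene Atp7a, with a difference of 0.54 between STAM-NON and Normal (limma adjusted p = 0.0294).

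Slc30a10, which encodes a manganese exporter of the ZnT family, was the member with the clearest difference with insulin. Its centred log2 signal was 0.79, 1.23 and 1.37 in the STAM-INS replicates. It was -2.04, -0.12 and -0.21 in the STAM-NON replicates and -0.22, 0.05 and -0.02 in the Normal replicates. Every STAM-INS value was above every value of the other 6 livers. The level in STAM-INS was 3.78-fold that in STAM-NON, a difference of 1.92 (SE 0.46, 95% interval 0.87 to 2.97) that did not pass after adjustment (limma adjusted p = 0.340). Against Normal it was 2.29-fold, a difference of 1.19 (95% interval 0.14 to 2.24, limma adjusted p = 0.114). STAM-NON and Normal differed by -0.73 (95% interval -1.78 to 0.32, limma adjusted p = 0.283).

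The spread of Slc30a10 came from STAM-NON replicate 1, which held the lowest value of the 9 livers. Without that array the results shift, and since it is the one that stands apart, the p-values without it are given as a description. The difference between STAM-INS and STAM-NON was then 1.30 (limma adjusted p = 0.0917) and that between STAM-NON and Normal was -0.10 (limma adjusted p = 0.746). The difference between STAM-INS and Normal stayed at 1.19 and passed the threshold (limma adjusted p = 0.00833), with an SE of 0.17 in place of 0.46. The same difference passed with only the 6 arrays of these groups (limma adjusted p = 0.0107). Over all 22 alternatives the difference between STAM-INS and STAM-NON ranged from 1.30 to 2.25 and passed in 0. The 9 arrays lay in 2 rows of their slides, and within row 1 STAM-INS replicate 1 was 1.58 above the mean of the 3 STAM-NON arrays, while within row 2 the other 2 STAM-INS arrays were 1.36 above the mean of the 3 Normal arrays. The genes most like Slc30a10 over the 9 arrays were H2-K1 (r = 0.970) and Sema4a (r = 0.968).

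STAM-NON replicate 1 also stood apart in other members. It had the lowest Slc30a1 (1.43) and Slc39a14 (3.17) and the highest Slc39a4 (7.01) of the 9 livers. Its mean level of 5 hepatocyte genes was 7.49, the lowest of the 9, where the other STAM livers lay between 7.91 and 8.08 and the Normal livers between 8.22 and 8.31. Its mean level of 4 bile duct genes (Krt19, Krt7, Sox9 and Spp1) was -0.0042, the highest of the 9, where the other STAM livers lay between -0.93 and -0.51 and the Normal livers between -2.34 and -1.28. The part of cell composition in these values was not tested.

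Slc39a4 encodes a plasma membrane zinc importer best known from the gut, where its loss causes zinc deficiency. It was lower in STAM-INS than in Normal without overlap, but not past the threshold. Its centred log2 signal was 6.06, 6.09 and 5.84 in the STAM-INS replicates, 6.66, 6.40 and 6.59 in the Normal replicates and 7.01, 5.92 and 5.79 in the STAM-NON replicates. STAM-INS differed from Normal by -0.55 (95% interval -1.22 to 0.11, limma adjusted p = 0.223). STAM-NON differed from Normal by -0.31 (limma adjusted p = 0.464), with 2 STAM-NON livers below all Normal livers and replicate 1 above them. Without STAM-NON replicate 1 the difference between STAM-NON and Normal was -0.70 (limma adjusted p = 0.0377). That between STAM-INS and Normal also passed, at -0.55 (limma adjusted p = 0.0322). The array left out is in neither of these 2 groups, so only the estimate of the spread changed. The same difference passed with only the 6 arrays of these groups, which also leaves that array out (limma adjusted p = 0.0299). The array left out is the one with the highest value of the 9, so these p-values are given as a description and support no difference. With spike-in centring, which raised the median difference of all probes between STAM-NON and Normal from -0.13 to 0.18, the difference between STAM-NON and Normal was 0.0015. The genes most like Slc39a4 were Aplp2 (r = 0.923) and Pnpla2 (r = 0.922), the latter encoding the triglyceride lipase ATGL. Of 6 intestinal marker genes 4 were not tested as too dim, among them Muc2, which marks goblet cells and was at background on all 9 arrays. The other 2 were measured on all 9 arrays. Fabp2 lay at 5.76 to 7.06 and passed in 0 comparisons. It differed by 0.38 in STAM-NON and by 0.26 in STAM-INS against Normal, opposite in sign to Slc39a4. Lgals4 lay at 2.22 to 2.26 in STAM-INS, 2.61 to 3.29 in STAM-NON and 2.81 to 3.48 in Normal livers. It fell by 0.89 in STAM-INS against Normal (limma adjusted p = 0.0355), the direction of Slc39a4. Between STAM-NON and Normal it differed by only -0.07 (limma adjusted p = 0.834). The part of such cells in the Slc39a4 signal was not tested.

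Slc39a5 encodes a zinc importer of the basolateral membrane of pancreatic and intestinal cells, also found in liver. It was measured on all 6 STAM arrays, at -1.27, -2.19 and -2.12 in the STAM-NON replicates and at -1.95, -1.31 and -1.69 in the STAM-INS replicates. In the Normal replicates it was -5.41, -5.64 and -0.76. Only Normal replicate 3 was well above background, and it held the highest level of the 9 livers, so the groups overlapped. STAM-NON differed from Normal by 2.08 (SE 1.13, 95% interval -0.50 to 4.66, limma adjusted p = 0.216) and STAM-INS from Normal by 2.29 (95% interval -0.29 to 4.86, limma adjusted p = 0.197).

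The Slc39a5 values against Normal rest on that 1 Normal array. Without it both remaining Normal arrays were not well above background, so that only a bound can be given. Set at the lowest signal measured above background on each array, they give a level at least 3.81-fold higher in STAM-NON and at least 4.4-fold higher in STAM-INS. Limma without that array used the measured signals, which lay below that limit, and its p-values do not belong to these bounds (limma adjusted p = 0.00666 and 0.00718). The probe passed the filter only through the STAM groups, and the array left out is the one with the highest value, so these p-values are given as a description and support no difference. STAM-INS and STAM-NON differed by 0.21 (95% interval -2.37 to 2.78, limma adjusted p = 0.972). With normexp background correction, which draws dim signals together, the differences against Normal were 0.42 in STAM-NON and 0.52 in STAM-INS. Of 7 pancreatic acinar marker genes 5 were not tested as too dim, and Cpa1, Pnlip and Cela3b were well above background on 0 of 9 arrays. Cela2a was well above background on 1 STAM-NON, 2 STAM-INS and 0 Normal arrays. Prss2 was so on 1 STAM-INS and 1 Normal array, and its signal was -4.64, -6.18 and -3.83 in the Normal replicates. The mean level of the 2 tested markers, Cel and Ctrb1, was -1.01, -1.02 and -0.82 in the Normal replicates, -1.52 to -1.004 in STAM-NON and -1.49 to -1.13 in STAM-INS. Of these, Ctrb1 fell by 0.78 in STAM-NON against Normal (limma adjusted p = 0.0254), and Cel passed in 0 comparisons. Their part in the Slc39a5 signal was not tested. The gene most like Slc39a5 over the 9 arrays was Nrg1 (r = 0.951).

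Slc30a1, the main exporter of zinc across the plasma membrane, varied least of the 7. Its centred log2 signal was 1.43, 1.89 and 2.41 in the STAM-NON replicates, 1.84, 2.09 and 2.21 in the STAM-INS replicates and 2.30, 2.13 and 2.29 in the Normal replicates. STAM-NON held both the lowest and the highest value. STAM-NON differed from Normal by -0.33 (95% interval -0.86 to 0.20, limma adjusted p = 0.330), STAM-INS from STAM-NON by 0.14 (95% interval -0.39 to 0.67, limma adjusted p = 0.897) and STAM-INS from Normal by -0.19 (95% interval -0.72 to 0.34, limma adjusted p = 0.592). A change of Slc30a1 beyond 1 log2 unit in any comparison lay outside these intervals. The genes most like it were Med14 (r = 0.943) and Shld2 (r = 0.936).

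Slc39a14 encodes an importer of zinc, manganese and iron that is induced in liver by inflammatory cytokines. Its centred log2 signal was 3.17, 3.68 and 4.21 in the STAM-NON replicates, 3.82, 4.10 and 4.10 in the STAM-INS replicates and 4.06, 4.04 and 3.83 in the Normal replicates. The STAM-INS and Normal livers covered nearly the same range, and 2 of 3 STAM-NON livers lay below it. STAM-NON differed from Normal by -0.29 (95% interval -0.84 to 0.26, limma adjusted p = 0.408), STAM-INS from STAM-NON by 0.32 (95% interval -0.23 to 0.87, limma adjusted p = 0.752) and STAM-INS from Normal by 0.03 (95% interval -0.52 to 0.58, limma adjusted p = 0.948). The genes most like it were Slc10a2 (r = 0.972) and Atp8b1 (r = 0.971), a bile acid transporter and a phospholipid flippase.

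The other members of both families gave 1 call. Of 19 other ZnT and ZIP genes on the array 15 were tested, 5 ZnT and 10 ZIP. In STAM-NON against Normal 0 passed, in STAM-INS against STAM-NON 0 passed and in STAM-INS against Normal 1 passed, Slc39a2, beside the shares of all probes given above. At an unadjusted limma p under 0.05 the counts were 5, 2 and 3 of 15, beside 35.8%, 8.78% and 32.5% of all probes, and the methods' t-test called 0, 0 and 1 after adjustment. Slc39a2, a zinc importer of the plasma membrane, had a centred log2 signal of -2.60, -2.72 and -2.88 in the STAM-INS replicates, -1.99, -2.14 and -2.43 in the STAM-NON replicates and -1.91, -1.77 and -1.60 in the Normal replicates. The 3 groups did not overlap, with STAM-INS lowest. It fell by 0.97 in STAM-INS against Normal (SE 0.15, limma adjusted p = 0.0074), while the differences were -0.43 between STAM-NON and Normal (limma adjusted p = 0.0825) and -0.54 between STAM-INS and STAM-NON (limma adjusted p = 0.432).

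By the brightest probe of each gene, the remaining 14 tested transporters lay within 0.55 log2 units of 0 in every comparison. Slc30a7 had 2 dimmer tested probes that disagreed with each other, at 0.28 and -0.97 in STAM-NON and at 0.13 and -1.39 in STAM-INS against Normal (limma adjusted p = 0.825 and 0.116 in the latter). By their brightest probes, all 5 tested ZnT genes had a difference below 0 in STAM-NON against Normal. Their median was -0.20, beside -0.13 over all tested probes, which spike-in centring moved to 0.18. In STAM-INS against STAM-NON all 5 were above 0, with a median of 0.11 beside 0.03 over all tested probes. In both comparisons 0 of them passed. The 10 ZIP genes had a median of 0.07 in STAM-NON against Normal, with 5 above 0, and of 0.10 in STAM-INS against Normal, with 8 above 0. The medians over all tested probes were -0.13 and -0.09. Mt3, the metallothionein best known from brain, differed by 0.13 in STAM-NON and 0.21 in STAM-INS against Normal (limma adjusted p = 0.627 and 0.431). How many of the 15 transporters passed in STAM-NON against Normal depended on the scaling and the fit, as the closing section gives.

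**Figure D5:**
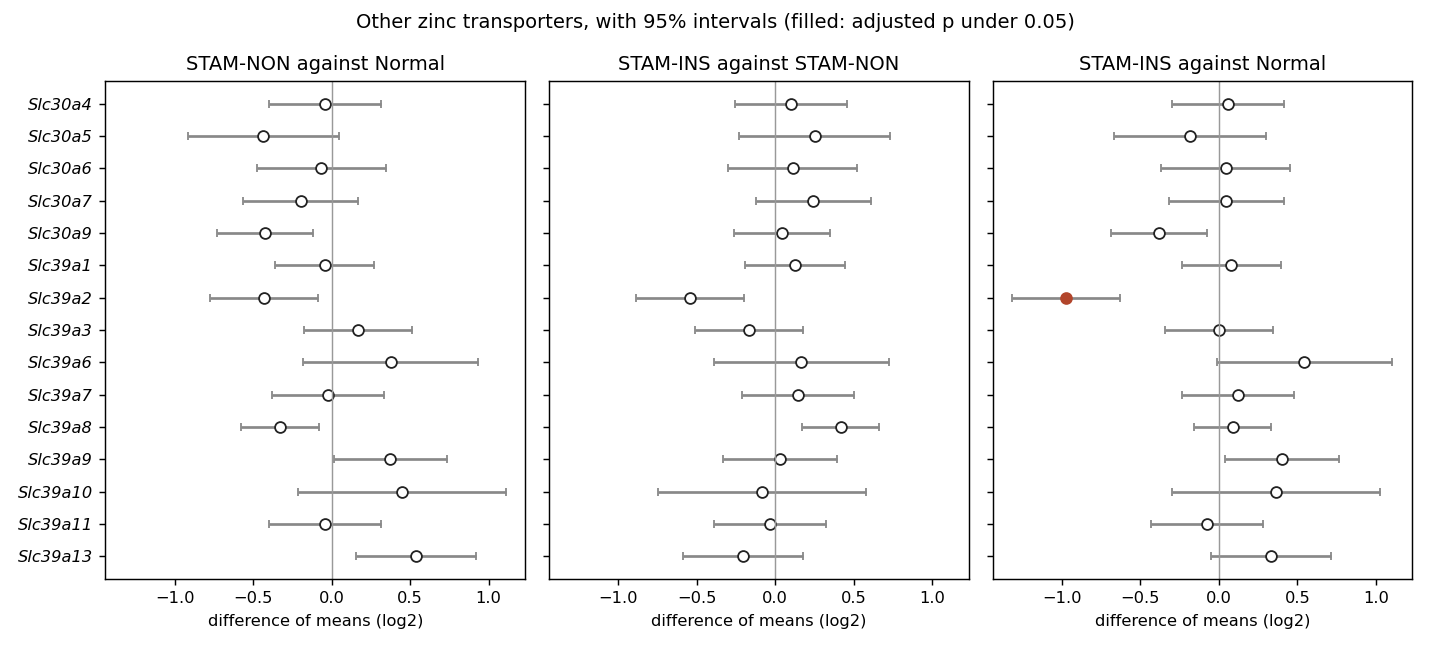
Difference of group means (log2, x axis) of the 15 other tested zinc transporters (y axis, ZnT genes above ZIP genes) in the 3 comparisons, with 95% intervals from limma. The filled point is Slc39a2 in STAM-INS against Normal at -0.97, and open points did not pass.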

How the data were processed

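Groups and replicate numbers came from the sample labels. The deposited files hold 1-colour scanner output of Agilent Feature Extraction 11.5.1.1, whose processed signal is a background-subtracted intensity on a linear scale, not normalised between arrays by the authors; the deposited median intensities of spot and local background served only the normexp alternative, since a mean signal was not used here. Control and outlier-flagged spots (161 to 217 per array) were left out, spots of 1 probe were averaged, and log2 values were centred on each array's 75th percentile. Transcript identifiers, without versions, named 27656 of 55681 probes through a RefSeq table (GRCm38.p6). Tests covered 26277 probes, namely those with a share of 0.5 or more of their spots flagged as above background on all 3 arrays of some group. Limma 3.58.1 in R 4.3.3 (lmFit, eBayes) was fitted to all 9 arrays with 6 residual degrees of freedom, two-sided. The script was tested on simulated data. The number of arrays limits the precision, and whether the mice are independent litters is not given in the sources used here.

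Members and gene lists (MTF-1 and other regulators, glucocorticoid targets, acute phase, copper handling, cell markers) were chosen with earlier results of these data known. Named were all members, any other zinc gene past the threshold, up to 3 genes per list past it with the largest difference, and the 2 genes most correlated with each member (1 of these is not reported here); Cpa1, Pnlip, Cela3b, Prss2, Muc2, Mtf1, Hamp, Slc30a7 and the other markers given with values were added after their values were seen. The methods name a two-sided t-test for other data, used as "the methods' t-test". Alternatives were other centring or background correction, filters, fits, slide row and replicate blocks, and leaving out each array.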

Additional observations from a re-analysis of the deposited data

Results flagged for a closer look

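Probes of 3 zinc genes entered no comparison, as they were too dim, but were well above background on STAM arrays and on none of the 3 Normal arrays. Mt4, a metallothionein known from stratified epithelia, was so on 2 of 6 STAM arrays, STAM-NON replicate 1 and STAM-INS replicate 1. Slc30a2, a vesicular zinc transporter gene, was so on 2 of 6, STAM-NON replicate 3 and STAM-INS replicate 1. Slc30a3, the transporter gene of synaptic vesicles, was so on 1 of 6, STAM-INS replicate 3, at -1.65, where the other 8 arrays lay between -5.76 and -4.31. For Mt4 the 2 STAM signals, -4.19 and -4.23, lay within the range of the Normal signals, -4.30 to -4.13. STAM-INS replicate 1, which was above background for both Mt4 and Slc30a2, had the largest share of spots well above background (65.0%). The lowest signal flagged as above background was -4.82 and -4.80 in STAM-NON replicates 1 and 3 and -4.96 in STAM-INS replicate 1. On the Normal arrays it was -4.09 to -3.68. The Mt4 and Slc30a2 signals above background, at -4.45 to -4.11, lay below that range. Slc30a8, a ZnT gene also too dim to be tested, went the other way. It was well above background on 1 Normal array and on 0 STAM-NON and 0 STAM-INS arrays. Its signal was -3.38, -1.49 and -5.79 in the Normal replicates. How many other dim probes share either pattern was not counted.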

How the results depend on the processing

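Each of 27 results was recomputed under up to 22 alternatives; of 591 values, 546 kept their direction and side of the threshold, 22 reversed, 22 came to pass and 1 no longer passed. Members past the threshold in STAM-INS against Normal numbered 2 with only the 6 arrays compared (Slc30a10 and Slc39a4) and 1 by the methods' t-test (Slc30a10). Leaving out 1 array gave 0 to 1 members in STAM-NON against Normal, 0 to 0 in STAM-INS against STAM-NON and 0 to 2 in STAM-INS against Normal. The arrays concerned were STAM-NON replicate 1 (Slc39a4, and Slc30a10 in STAM-INS) and Normal replicate 3 (Slc39a5). Other ZnT and ZIP genes past it in STAM-NON against Normal numbered 1 with the 75th percentile of detected probes, 1 with E1A spike-in centring, 1 with quantile normalisation, 2 with normexp, 2 with trend and robust, 4 with slide row as a random block and 0 to 1 when 1 array was left out (1 without STAM-NON replicate 2). In STAM-INS against Normal they numbered 2 with normexp and 0 without the filter. The cause was not tested.

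Reversed differences belonged only to genes below the threshold. Between STAM-NON and Normal, spike-in centring gave 0.074 for Mt1, 0.0015 for Slc39a4 and 0.023 for Slc39a14, quantile normalisation gave 0.069 for Mt1, and slide row as a fixed block gave -0.56 for Mt2. When 1 array was left out, Mt1 ranged from -1.09 to 0.89 (also 0.10 without Normal replicate 2) and Mt2 from -0.94 to 1.55. Between STAM-INS and STAM-NON, Slc30a1 was -0.010 with spike-in centring and -0.069 with the row block, and Slc39a5 was -0.10 with the row block. When 1 array was left out, Mt1 ranged from -0.33 to 1.65, Mt2 from -0.51 to 1.98, Slc30a1 from -0.10 to 0.39 and Slc39a4 from -0.47 to 0.14. Between STAM-INS and Normal, Slc39a14 was -0.16 with median centring and ranged from -0.046 to 0.12 when 1 array was left out.

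The median difference of all probes between STAM-NON and Normal was -0.13, 0.18 with spike-in centring and -0.30 with median centring, and differences near 0 are read against it. Same-numbered arrays did not deviate together (r from -0.288 to 0.149), so the numbers pair nothing, and with the replicate number as a block 0, 0 and 0 members passed. Slc39a5 had no value where only probes detected on all 9 arrays were tested. Dim probes such as Slc39a5 in Normal are limited by the background.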
